A study of Mus musculus with 35 samples.

Results

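Collagens are the triple-helical proteins of the extracellular matrix, and their genes were compared here in mouse lung at different times of day, with and without depletion of neutrophils. The members are all genes of the deposited table whose symbol has the form Col, a type number, a, and a chain number. They came to 43 of 22211 genes, and 37 of the 43 reached a normalised expression value of 1 in at least 3 libraries and were tested. By structure 11 members encode fibrillar chains (9 tested), 8 encode basement membrane chains (8 tested) and 24 encode other chains (20 tested). The study measured polyadenylated RNA of the left lung lobe in 35 male mice aged 7 to 9 weeks, 1 library per mouse.

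Anti-Ly6G mice were wild type (WT) animals given the antibody clone 1A8, which binds the neutrophil surface protein Ly6G, at 3 µg per g body weight under the skin on 2 consecutive days. DT mice carried MRP8-Cre;iDTR-flox and received diphtheria toxin at 10 ng per g on the same schedule. In that genotype Cre, driven by the promoter of the myeloid gene MRP8, switches on a toxin receptor in neutrophils and related myeloid cells. Control mice were WT and received control IgG at 3 µg per g. ZT4 (zeitgeber time 4, 4 hours after lights on) mice lived in the normal facility and ZT16 mice in cabinets with an inverted light cycle, so time and housing cannot be told apart in any comparison. Anti-Ly6G and control groups held 7 mice at each time, of which 3 belonged to July 2017 and 4 to September 2017. The DT groups held 3 mice at ZT16 and 4 at ZT4, all of April 2018, when no control mice were taken, so toxin, genotype and batch cannot be told apart.

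A collagen molecule is a triple helix whose chains may be copies of a single gene product or products of different genes. Fibrillar collagens such as types I, III and V assemble into the rope-like fibrils that give the alveolar wall and airways their tensile strength. Type IV collagen forms the sheet-like network of basement membranes, on which alveolar epithelium and capillary endothelium lie back to back. Other members coat fibrils, form beaded filaments or hexagonal networks, or span the cell membrane. Fibroblasts are the main source of fibrillar collagen in the lung, while epithelial and endothelial cells also make type IV chains.

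The lung identity of the tissue was plain from its markers: the surfactant gene Sftpc ranged from 13780 to 19990 and the alveolar type 1 gene Ager from 1412 to 2484 over the 35 libraries. Cartilage genes were near 0, with Acan between 0.0318 and 1.08 and Comp between 0.0624 and 0.63. Library sums of the deposited values lay between 962649 and 1033550, and 15351 to 15802 genes were at or above 1 in each library. The 9 tested neutrophil markers had a median log2 difference of -0.56 at ZT16 and -1.18 at ZT4 between anti-Ly6G and control mice, and limma called 0 of the 9, while 3 at ZT16 and 9 at ZT4 had an unadjusted p under 0.05. Ly6g itself, the antibody's target, had a median of 0.0986 in ZT16 anti-Ly6G mice, against 0.0815 in ZT16 control mice, and of 0.303 in ZT4 anti-Ly6G mice, against 0.435 in ZT4 control mice, and was too low in most libraries to check the depletion. A single library, ZT4 control Sep#2, had a summed level of the 10 neutrophil markers of 777.5, against 51.96 to 204 in the other ZT4 control libraries. Libraries are named by group, batch and order in the table, and these numbers pair nothing across groups. Since whole lobes were measured, fewer cells of a type and less RNA per cell cannot be told apart for any gene below.

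Some collagen genes differed between ZT16 and ZT4 in each treatment, while none passed the test between anti-Ly6G and control mice at either time. Differences were tested with limma on log2(value + 0.5) with Benjamini-Hochberg adjustment over all 16786 genes tested, and a gene is said to rise or fall where the adjusted p was under 0.05. In anti-Ly6G mice 15 of the 37 tested collagens (40.5%) differed between ZT16 and ZT4, against 20.9% of all tested genes. Of these, 4 were higher at ZT16 (10.6% of all genes) and 11 were lower (10.4% of all genes). In DT mice 8 of 37 (21.6%) differed, against 15.3% of all genes, with 2 higher and 6 lower, where 5.3% and 9.98% of all genes were called in those directions. In control mice 11 of 37 (29.7%) differed, against 9.04% of all genes, with 4 higher and 7 lower, where 4.65% and 4.38% of all genes were called. The 4 collagens Col13a1, Col23a1, Col27a1 and Col5a1 passed in all 3 treatments, with the same direction in each. Another 6, Col1a1, Col3a1, Col5a3, Col12a1, Col15a1 and Col8a1, passed with the same direction in anti-Ly6G and control mice, and no collagen passed in opposite directions. In total 19 collagens passed in at least 1 treatment and 18 in none. The same overlaps between treatments were not counted over all genes, so these numbers do not set collagens apart from other genes. Within batches, 9 collagens passed in anti-Ly6G mice of July and 9 of September, and 2 in control mice of July and 5 of September, with fewer mice in each. In DT mice the count dropped to 5 without ZT16 DT Apr#1 or without ZT16 DT Apr#2, and the share of collagens called there was near that of all genes.

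The classes are described side by side. Among the 9 fibrillar collagens 1 rose and 5 fell at ZT16 in anti-Ly6G mice, 1 rose and 2 fell in DT mice, and 1 rose and 4 fell in control mice. Their median log2 change was -0.23, -0.20 and -0.15 in the order anti-Ly6G, DT and control. No basement membrane collagen of 8 rose, while 4 fell in anti-Ly6G, 3 in DT and 1 in control mice, with medians of -0.32, -0.36 and -0.076. Of the 20 other collagens 3 rose and 2 fell in anti-Ly6G mice, 1 rose and 1 fell in DT mice, and 3 rose and 2 fell in control mice, with medians of 0.0037, -0.042 and -0.023. The median over all tested genes was -0.016, -0.0090 and -0.0018. Of the fibrillar class 66.7%, 33.3% and 55.6% were called in anti-Ly6G, DT and control mice, against 20.9%, 15.3% and 9.04% of all genes. Of the basement membrane class 50%, 37.5% and 12.5% were called, and of the other class 25%, 10% and 25%. The share was near that of all genes for other collagens in anti-Ly6G mice and basement membrane collagens in control mice. For other collagens in DT mice it was below. These counts, shares and medians were not tested against each other.

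**Figure D1:**
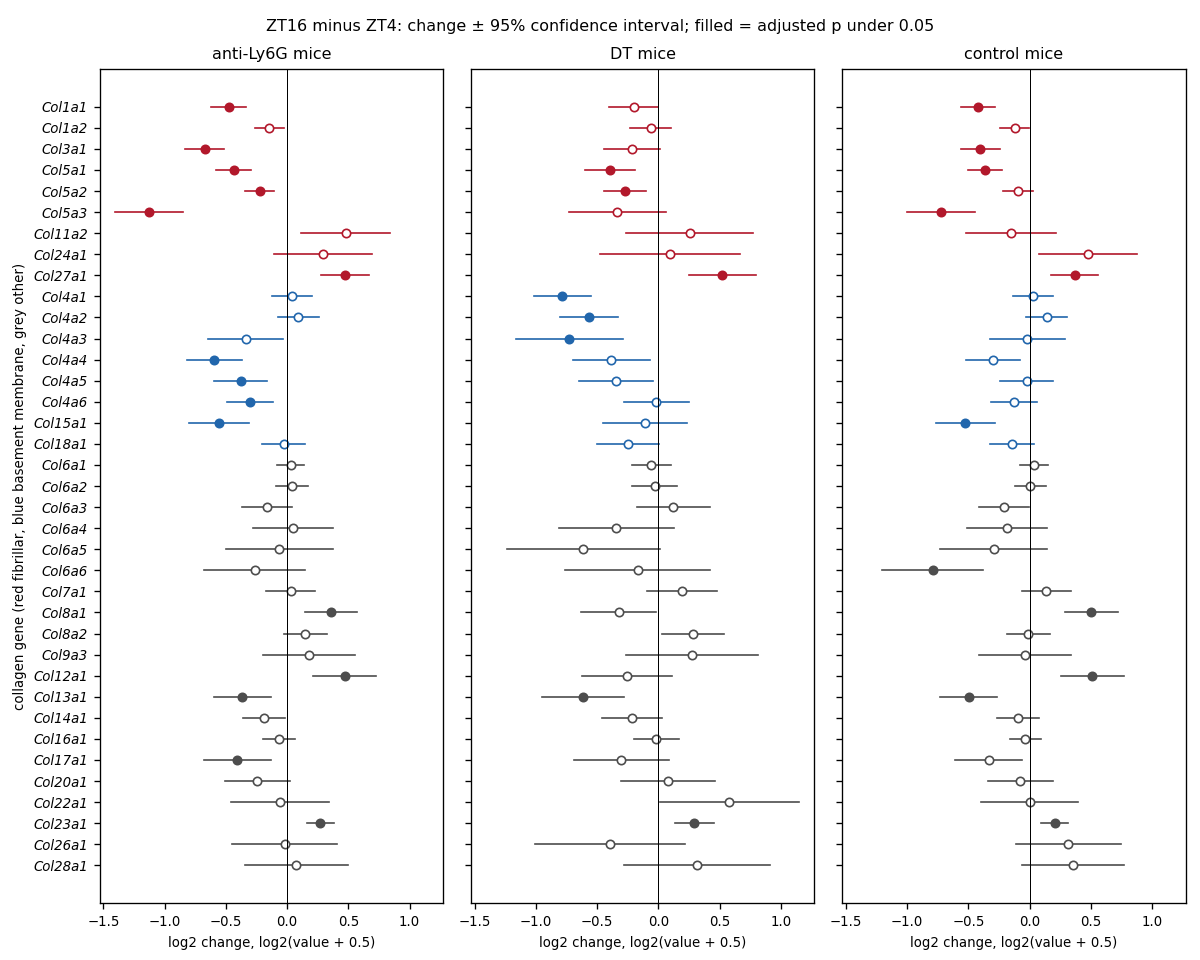
Log2 change from ZT4 to ZT16 with its 95% confidence interval (x axis, log2(value + 0.5)) for the 37 tested collagens (y axis) in anti-Ly6G, DT and control mice, with filled points at an adjusted p under 0.05. The filled fibrillar and basement membrane points lie left of 0 except those of Col27a1, and Col4a1 lies at -0.78 in DT mice, against 0.030 in control mice.

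Type I collagen, the main fibril-forming protein of most tissues, is built from Col1a1 and Col1a2 chains. In GENCODE M21 on GRCm38, Col1a1 lies at chr11:94936224-94953042 on the plus strand. Col1a1 had a lowest, median and highest value of 225, 244 and 269 in ZT16 anti-Ly6G mice, against 289, 335 and 403 in ZT4 anti-Ly6G mice. All 7 ZT16 mice lay below all 7 ZT4 mice. Control mice had 196, 292 and 331 at ZT16, against 310, 368 and 426 at ZT4, and there the 2 times overlapped. The 3 ZT16 DT mice had 287, 241 and 264, and the 4 ZT4 DT mice had 305, 299.9, 308 and 300.2, so that these groups did not overlap either. The change of Col1a1 at ZT16 was -0.48 ± 0.069 (log2 ± SE, adjusted p = 6.1e-06) in anti-Ly6G mice and -0.42 ± 0.069 (adjusted p = 9.8e-05) in control mice. In DT mice it was -0.20 ± 0.099 (adjusted p = 0.17), which did not pass. Groups that do not overlap were seen for 5.18% of all genes between the times in anti-Ly6G mice, 26.2% in DT mice, where the groups are small, and 2.39% in control mice. By that count 4 collagens were lower and 2 higher at ZT16 in every anti-Ly6G mouse, 9 were lower and 3 higher in every DT mouse, and 0 were lower and 1 higher in every control mouse.

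Col1a2 moved less than its partner chain. Its lowest, median and highest values were 451, 454 and 483 in ZT16 anti-Ly6G mice, against 465, 491 and 576 in ZT4 anti-Ly6G mice. In control mice they were 406, 511 and 577 at ZT16, against 475, 539.6 and 588 at ZT4. The groups overlapped in both treatments, and so did the DT groups, with 447, 415 and 501 at ZT16 and 424, 488, 487 and 496 at ZT4. The change was -0.15 ± 0.058 in anti-Ly6G (adjusted p = 0.067), -0.062 ± 0.083 in DT (adjusted p = 0.66) and -0.12 ± 0.058 in control mice (adjusted p = 0.19). Without the ZT16 control library Sep#3 the change in control mice passed, at -0.17 (adjusted p = 0.048). The ratio of the Col1a1 value to the Col1a2 value averaged 0.533 ± 0.031 at ZT16 and 0.67 ± 0.031 at ZT4 in anti-Ly6G mice (SD, n = 7 each). It averaged 0.556 ± 0.035 at ZT16 and 0.684 ± 0.048 at ZT4 in control mice (SD, n = 7 each). In DT mice the ratio was 0.584 ± 0.058 at ZT16 (SD, n = 3) and 0.643 ± 0.052 at ZT4 (SD, n = 4). The ratio was not tested, and since it is not known whether the values are per length, it compares groups and is not a ratio of molecules.

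Col3a1 encodes type III collagen, a homotrimer that forms fine fibrils together with type I. Its values in anti-Ly6G mice were 397, 430.1 and 506 (lowest, median and highest) at ZT16, against 621, 723 and 780.2 at ZT4, with no overlap. In control mice they were 402, 510.1 and 664 at ZT16, against 573, 696 and 768 at ZT4, and the groups overlapped. The ZT16 DT mice had 493, 461 and 502, all below the ZT4 DT mice at 507, 596, 552 and 604. The change was -0.67 ± 0.078 in anti-Ly6G mice (adjusted p = 1.1e-07) and -0.40 ± 0.078 in control mice (adjusted p = 0.00075). In DT mice it was -0.22 ± 0.11 (adjusted p = 0.19), with an interval from -0.44 to 0.011. The exons of Col3a1 share 141 bases with a gene model on the same strand, Gm47302, among 9816 exon bases, and reads there cannot be assigned to either with certainty.

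Type V collagen sits inside type I fibrils and controls their diameter, and its 3 chain genes differed in size of change. Col5a3 fell most. It had 3.31, 4.19 and 4.53 in ZT16 anti-Ly6G mice, against 7.78, 9.70 and 11.2 in ZT4 anti-Ly6G mice, without overlap. In control mice it had 3.63, 4.45 and 7.07 at ZT16, against 6.00, 7.23 and 13.8 at ZT4. Among control mice 1 ZT16 mouse reached into the ZT4 range, and the highest ZT4 value came from Sep#3. DT mice overlapped, with 6.38, 5.60 and 4.83 at ZT16 and 5.69, 8.71, 8.004 and 6.60 at ZT4. The change was -1.13 ± 0.14 in anti-Ly6G (adjusted p = 2.5e-07), -0.34 ± 0.19 in DT (adjusted p = 0.25) and -0.72 ± 0.14 in control mice (adjusted p = 0.00053). Without ZT4 control Sep#3 the control change was still called at -0.59.

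Col5a1 had 55.3, 56.0 and 62.6 in ZT16 anti-Ly6G mice, against 64.3, 75.8 and 92.2 in ZT4 anti-Ly6G mice, and the groups did not overlap. Its control values were 52.0, 59.7 and 69.6 at ZT16, against 64.6, 81.8 and 84.8 at ZT4, and its DT values were 48.7, 58.6 and 61.7 at ZT16, against 76.6, 76.5, 63.9 and 79.5 at ZT4. Col5a1 fell in all 3 treatments, by 0.44 ± 0.070 in anti-Ly6G (adjusted p = 2.7e-05), 0.39 ± 0.099 in DT (adjusted p = 0.0073) and 0.36 ± 0.070 in control mice (adjusted p = 0.00063), on the log2 scale. In DT mice that call was lost without ZT16 DT Apr#1, at -0.29 (adjusted p = 0.081). Col5a2 fell in anti-Ly6G mice (-0.23 ± 0.059, adjusted p = 0.0059), with 88.7, 97.3 and 108 at ZT16, against 95.3, 115 and 126 at ZT4. In DT mice it fell as well (-0.27 ± 0.084, adjusted p = 0.026), with 95.3, 84.2 and 96.5 at ZT16, all below 115, 117, 97.4 and 116 at ZT4. That DT call was lost without any of ZT4 Apr#1 (-0.26), ZT4 Apr#2 (-0.25), ZT4 Apr#4 (-0.25) or ZT16 Apr#2 (-0.21), and under quantile normalization (-0.18). Control mice showed a change of -0.093 ± 0.059 (adjusted p = 0.36), with 98.2, 102 and 124 at ZT16, against 105, 115 and 120.2 at ZT4. Exons of Col5a1 share 212 bases with gene models of the other strand, and the labels do not say whether counting used strand.

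Col27a1, a fibrillar collagen with a shorter helix that is best known from cartilage, went the other way. It had 32.3, 38.6 and 48.4 in ZT16 anti-Ly6G mice, against 20.6, 30.6 and 31.9 in ZT4 anti-Ly6G mice, and all ZT16 mice were higher. In DT mice the ZT16 values of 30.8, 44.7 and 46.8 also lay above the ZT4 values of 23.9, 29.9, 29.6 and 28.1. Control mice had 33.3, 38.2 and 42.8 at ZT16, against 24.7, 29.5 and 34.5 at ZT4, with a slight overlap. Col27a1 rose by 0.47 ± 0.095 in anti-Ly6G (adjusted p = 0.00049), 0.52 ± 0.14 in DT (adjusted p = 0.0087) and 0.37 ± 0.095 in control mice (adjusted p = 0.011). Its DT call was lost without ZT16 Apr#2 (0.45) or ZT16 Apr#3 (0.41). Col11a2 and Col24a1, the remaining tested fibrillar genes, passed in no treatment. Col11a2 had a change of 0.48 ± 0.18 in anti-Ly6G mice (adjusted p = 0.053) and of -0.15 ± 0.18 in control mice (adjusted p = 0.67). Col2a1 and Col11a1, the typical cartilage fibril genes, were below 1 in every library and were not tested.

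**Figure D2:**
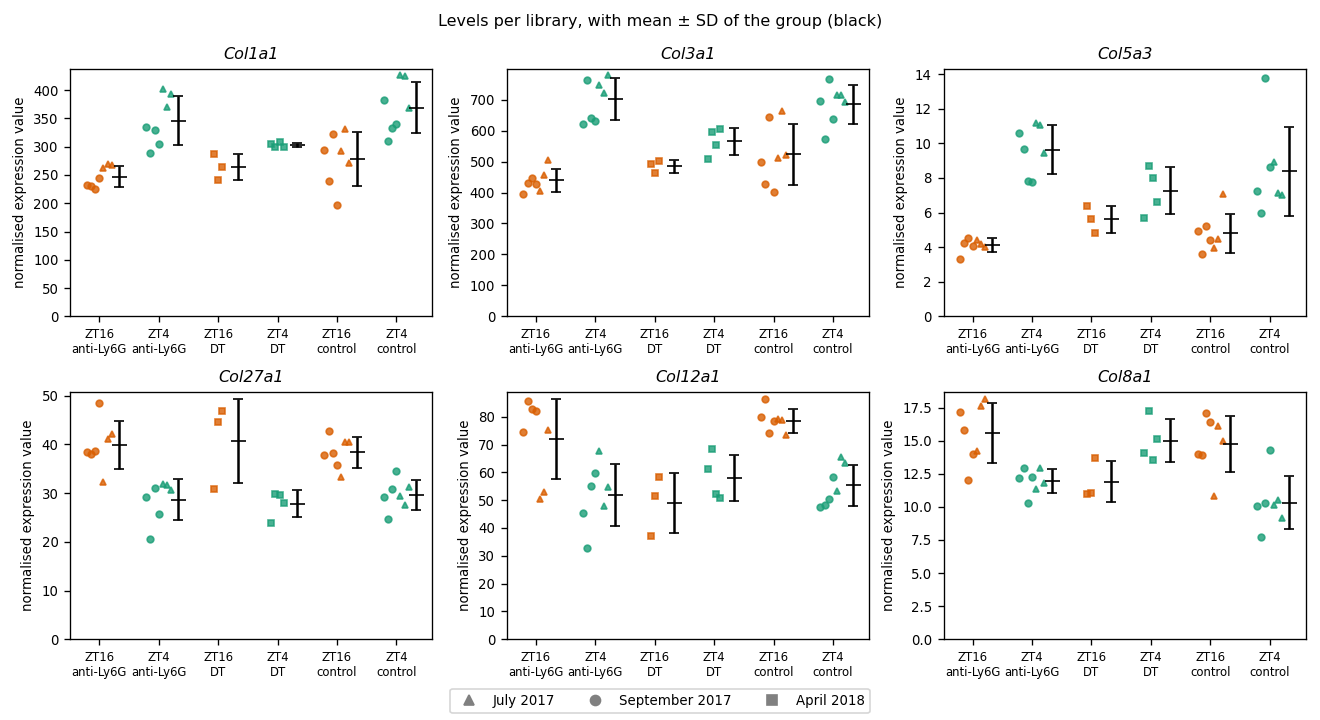
Normalised expression values (y axis, from 0) of 6 collagens in each library by group (x axis), with the mean ± SD of each group in black and the marker shape giving the batch. Col1a1, Col3a1 and Col5a3 sit lower in ZT16 than in ZT4 anti-Ly6G mice without overlap, Col27a1 sits higher, and Col12a1 and Col8a1 sit higher at ZT16 in anti-Ly6G and control mice but not in DT mice.

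All 7 mesothelial markers were lower at ZT16 in anti-Ly6G mice (median -0.64), where 10.4% of all genes were called lower. Their summed level was 226 to 336 at ZT16, against 329 to 532 at ZT4. In control mice 1 of the 7 was lower (4.38% of all genes), with sums of 226 to 375 at ZT16 and 313 to 517 at ZT4. Their median change there was -0.29, and 4 of the 7 had an unadjusted p under 0.05 in limma. The difference between the time changes of anti-Ly6G and control mice passed for 0 of the 7 and for 0% of all genes. In DT mice 1 of the 7 was lower (9.98% of all genes), with sums of 362 to 433 at ZT16 and 332 to 404 at ZT4. Fibroblast markers showed 1 higher and 1 lower of 13 in anti-Ly6G mice (15.4%, against 20.9% of all genes called). Their sums were 3727 to 4663 at ZT16 and 3921 to 4579 at ZT4. By limma 0 of 13 passed in control mice (9.04% of all genes), with 3779 to 4395 at ZT16 and 3744 to 4946 at ZT4. Smooth muscle and pericyte markers showed 3 lower of 10 in control mice (4.38% of all genes) and 2 lower in DT mice (9.98% of all genes). In anti-Ly6G mice 1 of these 10 was higher, near the 10.6% of all genes. No marker of these lists was below 1 in all libraries. The part of these cell types in the collagen changes was not tested.

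The 300-base windows around RefSeq transcript starts (250 bases before to 50 after, GRCm38.p6) were available for 34 of the 43 members, in 36 windows. Those of Col3a1 (chr1:45311288-45311587, plus strand) and Col5a3 (chr9:20815018-20815317, minus strand) are printed because these genes had the largest falls among fibrillar collagens in anti-Ly6G mice. Capitals mark a TATAAA match in Col3a1 and a CCAAT match in Col5a3, each searched on both strands.
Col3a1: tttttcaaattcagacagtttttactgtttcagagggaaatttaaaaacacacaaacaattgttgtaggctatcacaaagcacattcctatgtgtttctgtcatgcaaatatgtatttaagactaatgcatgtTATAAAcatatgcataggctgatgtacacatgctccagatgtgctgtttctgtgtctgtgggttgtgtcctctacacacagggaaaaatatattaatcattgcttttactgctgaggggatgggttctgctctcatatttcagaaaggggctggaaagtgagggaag
Col5a3: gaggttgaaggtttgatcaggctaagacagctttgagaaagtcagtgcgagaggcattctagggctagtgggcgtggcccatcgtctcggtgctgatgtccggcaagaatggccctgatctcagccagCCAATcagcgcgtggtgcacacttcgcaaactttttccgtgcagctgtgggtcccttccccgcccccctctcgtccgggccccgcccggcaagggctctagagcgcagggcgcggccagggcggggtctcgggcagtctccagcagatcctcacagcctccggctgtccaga
TATAAA was present in 5 of the 36 collagen windows (13.9%), against 13.6% of all 32851 windows, and CCAAT in 12 (33.3%), against 37.4%. CACGTG, the E-box letters read by clock transcription factors, was in 0 of 36 collagen windows and in 7.2% of all windows. GGGCGG, the letters of a GC box, was in 23 of 36 (63.9%), against 35.7% of all windows. These are counts of letters in a fixed window and describe no binding.

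Among basement membrane collagens, Col4a1 and Col4a2 fell at ZT16 in DT mice. Col4a1 and Col4a2 encode the chains of the most widespread type IV network, present under nearly all endothelium and epithelium. Col4a1 in DT mice had 747, 582 and 695 at ZT16, against 1372, 1135, 1022 and 1123 at ZT4. Col4a2 had 743, 576 and 650.2 at ZT16, against 1105, 962, 851 and 967 at ZT4. Neither gene's groups overlapped, and the changes were -0.78 ± 0.12 for Col4a1 (adjusted p = 3.0e-05) and -0.57 ± 0.12 for Col4a2 (adjusted p = 0.0015).

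Neither gene passed in the other treatments. Col4a1 had 815, 957 and 1124 in ZT16 anti-Ly6G mice, against 790.3, 930.4 and 1070.0 in ZT4 anti-Ly6G mice, and 843, 1010.0 and 1171 in ZT16 control mice, against 846, 953 and 1079 in ZT4 control mice. The groups overlapped widely, with changes of 0.037 (interval -0.13 to 0.20) in anti-Ly6G and 0.030 (interval -0.13 to 0.19) in control mice. Col4a2 had 684, 877 and 1045 in ZT16 anti-Ly6G mice, against 683, 843 and 958 at ZT4, and 809, 933 and 1034 in ZT16 control mice, against 707, 825 and 947 at ZT4. Its changes were 0.092 (interval -0.074 to 0.26) and 0.14 (interval -0.027 to 0.31). The difference between the time changes of DT and control mice was tested directly and passed for 4 of 37 collagens (13.8% of all genes passed), with 0 higher (4.93% of all genes) and 4 lower (8.86% of all genes) in DT mice. It was -0.81 ± 0.14 for Col4a1 (adjusted p = 0.00059) and -0.71 ± 0.14 for Col4a2 (adjusted p = 0.0018). For Col8a1 it was -0.83 ± 0.18 (adjusted p = 0.0037) and for Col12a1 -0.77 ± 0.22 (adjusted p = 0.019), the last of which was lost without ZT16 DT Apr#1, at -0.59 (adjusted p = 0.099).

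Col4a1 and Col4a2 lie head to head on chromosome 8, with annotated starts 21 bases apart on opposite strands and exons that share 22 bases, so reads from that stretch cannot be told apart without strand. Their windows are printed because both genes fell in DT mice, and each runs 5′ to 3′ in the direction of its own gene. The genes span chr8:11198423-11312826 (Col4a1) and chr8:11312805-11449287 (Col4a2) in GENCODE M21. Capitals mark the 78 bases that both windows cover, in Col4a1 (chr8:11312777-11313076, minus strand) and Col4a2 (chr8:11312555-11312854, plus strand).
Col4a1: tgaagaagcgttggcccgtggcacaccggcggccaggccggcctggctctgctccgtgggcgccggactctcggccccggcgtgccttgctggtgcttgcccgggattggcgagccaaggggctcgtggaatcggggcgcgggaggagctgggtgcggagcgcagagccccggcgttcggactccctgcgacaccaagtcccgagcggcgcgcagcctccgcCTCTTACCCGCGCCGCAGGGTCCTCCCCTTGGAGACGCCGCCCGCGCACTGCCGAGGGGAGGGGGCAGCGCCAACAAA
Col4a2: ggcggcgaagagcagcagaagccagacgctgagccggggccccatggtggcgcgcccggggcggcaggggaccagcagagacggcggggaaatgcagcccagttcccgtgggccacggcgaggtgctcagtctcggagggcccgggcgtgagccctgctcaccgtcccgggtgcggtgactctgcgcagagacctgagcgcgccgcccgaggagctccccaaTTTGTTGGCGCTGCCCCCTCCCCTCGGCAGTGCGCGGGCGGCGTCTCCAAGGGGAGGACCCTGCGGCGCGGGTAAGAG
Each window held 1 CCAAT match on either strand, and neither held TATAAA. Within group and batch the levels of these genes followed each other closely, as given for the chain pairs at the end.

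Col4a3, Col4a4 and Col4a5 form another type IV network, which in the lung belongs to the alveolar and airway basement membranes. Col4a4 fell in anti-Ly6G mice (-0.60 ± 0.11, adjusted p = 0.00018), with 99.1, 169 and 213 at ZT16, against 190.1, 235 and 303 at ZT4. The groups overlapped, and the lowest library was ZT16 Jul#2. In control mice Col4a4 had 167, 187 and 220.0 at ZT16, against 206, 241 and 255 at ZT4, and its change of -0.30 ± 0.11 did not pass (adjusted p = 0.079). In DT mice it had 171, 160.1 and 179 at ZT16, all below 224, 212, 224 and 227 at ZT4, with a change of -0.38 ± 0.16 (adjusted p = 0.092).

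Col4a5 fell in anti-Ly6G mice (-0.38 ± 0.11, adjusted p = 0.0090), with 78.4, 128 and 147 at ZT16, against 124, 157 and 183 at ZT4. It had 132, 142 and 166 in ZT16 control mice, against 123, 146 and 172 in ZT4 control mice, a change of -0.024 ± 0.11 (adjusted p = 0.92). In DT mice it had 99.1, 118 and 118 at ZT16, against 146, 154, 117 and 152 at ZT4 (adjusted p = 0.11). Col4a3 fell in DT mice (-0.73 ± 0.22, adjusted p = 0.021), where the ZT16 values of 179, 145 and 196 lay below the ZT4 values of 325, 298, 264 and 259. That call was lost without ZT4 Apr#1 (-0.66) or ZT16 Apr#2 (-0.61). In anti-Ly6G mice Col4a3 did not pass (-0.34 ± 0.15, adjusted p = 0.11), with 104, 249.6 and 301 at ZT16, against 199.7, 269.5 and 355 at ZT4. In control mice it had 237, 265 and 316 at ZT16, against 239.9, 264 and 324 at ZT4, and the groups overlapped almost fully. Col4a3 shares 563 exon bases with C430014B12Rik on the other strand.

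These 3 chains differed between batches in anti-Ly6G mice. The ZT16 minus ZT4 difference of July mice was -0.79 for Col4a3, -0.86 for Col4a4 and -0.68 for Col4a5, against 0.0037, -0.40 and -0.16 in September mice. The lowest ZT16 library for all 3 was Jul#2, with 104 for Col4a3, 99.1 for Col4a4 and 78.4 for Col4a5. ZT16 Jul#1 was next lowest, with 170.3, 132.7 and 98.53 in that order. The third July library, Jul#3, was the highest of the ZT16 anti-Ly6G group, with 301.4, 212.9 and 146.6, so the July mice were not alike. ZT16 Jul#2 also had the lowest summed level of alveolar type 1 markers of its group, 4724, against 5948 to 7496 in the other ZT16 anti-Ly6G libraries. None of the 8 alveolar type 1 markers passed over time in anti-Ly6G mice (median -0.16), and their part in the result was not tested. Without ZT16 Jul#2 the changes of Col4a4 (-0.48) and Col4a5 (-0.27) still passed. Col4a6, which pairs with Col4a5 in a further network around smooth muscle, fell in anti-Ly6G mice (-0.30 ± 0.092, adjusted p = 0.018), with 20.9, 27.6 and 30.1 at ZT16, against 28.1, 32.2 and 39.5 at ZT4. Without ZT16 anti-Ly6G Jul#2 that call was lost, at -0.24 (adjusted p = 0.057). In DT mice Col4a6 had 24.2, 35.5 and 28.3 at ZT16, against 25.4, 28.8, 33.7 and 30.03 at ZT4, a change of -0.016 ± 0.13. Control mice had 24.4, 29.6 and 32.2 at ZT16, against 27.6, 31.8 and 38.6 at ZT4, a change of -0.13 ± 0.092. The groups overlapped in both treatments, and neither change passed.

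**Figure D3:**
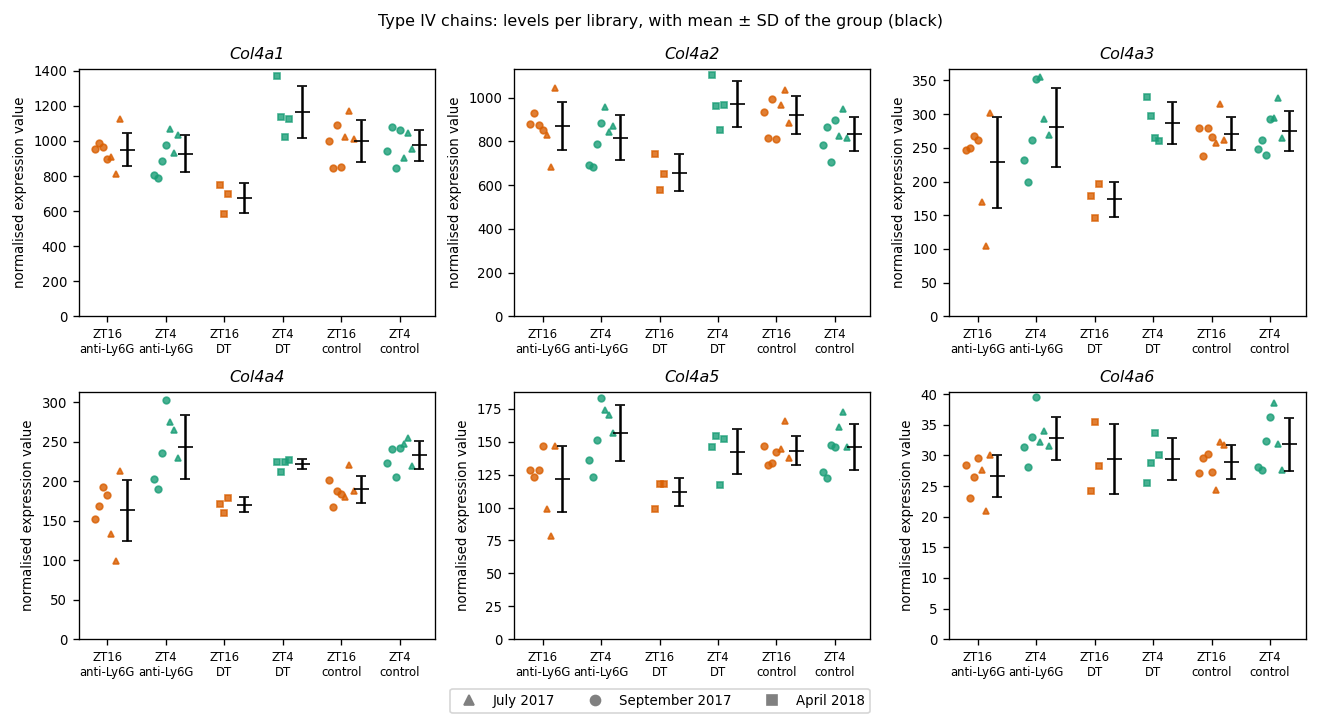
Normalised expression values (y axis, from 0) of the 6 type IV collagen chains in each library by group (x axis), with the mean ± SD of each group in black and the marker shape giving the batch. The 3 ZT16 DT mice lie below the 4 ZT4 DT mice for Col4a1, Col4a2, Col4a3 and Col4a4, and a July library lies lowest in the ZT16 anti-Ly6G group for Col4a3, Col4a4 and Col4a5.

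Col15a1 and Col18a1 encode the multiplexins, which anchor basement membranes to the underlying matrix, and the end fragment of the Col18a1 product is endostatin. Col15a1 fell in anti-Ly6G mice (-0.56 ± 0.12, adjusted p = 0.00094), with 9.11, 10.3 and 14.6 at ZT16, against 13.4, 16.4 and 19.7 at ZT4. It fell in control mice as well (-0.52 ± 0.12, adjusted p = 0.0039), with 10.1, 11.4 and 14.5 at ZT16, against 12.1, 15.5 and 25.6 at ZT4. In DT mice it had 12.1, 12.6 and 13.1 at ZT16, inside the ZT4 values of 14.6, 15.1, 13.9 and 11.3, and its change was -0.11 ± 0.17 (adjusted p = 0.71). Col18a1 passed in no treatment, with medians of 53.9 at ZT16 and 53.9 at ZT4 in anti-Ly6G mice, 50.3 and 56.8 in DT mice, and 51.8 and 58.7 in control mice. Its changes were -0.029 (interval -0.21 to 0.15), -0.25 (interval -0.50 to 0.0051) and -0.14 (interval -0.32 to 0.033).

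Cell type markers differed by list in DT mice, where 9.98% of all genes were called lower at ZT16 and 5.3% higher. Of 10 endothelial markers 6 were lower at ZT16 (median -0.45), with summed levels of 3827 to 4388 at ZT16, against 5147 to 6684 at ZT4. Of 13 fibroblast markers 7 were lower and 1 was higher (median -0.41), with sums of 3186 to 4214 at ZT16, against 4349 to 4809 at ZT4. Smooth muscle and pericyte markers showed 2 lower of 10 in DT mice (median 0.17), and mesothelial markers 1 of 7 (median 0.041). Alveolar type 1 markers showed 1 lower of 8 (median -0.054), and alveolar type 2 markers 3 of 8 (median 0.011). No gene of these further lists was called higher there. In anti-Ly6G mice 4 of the 10 endothelial markers were higher and 2 lower, against 10.6% and 10.4% of all genes. Their sums were 4604 to 5965 at ZT16 and 4140 to 5046 at ZT4. Control mice had 2 higher and 2 lower, against 4.65% and 4.38% of all genes. The control sums were 4425 to 5306 at ZT16 and 4003 to 5162 at ZT4. All these markers were above 1 in some library. The summed level of 8 lung markers was higher in ZT16 DT mice, at 58330 to 63050, against 44980 to 54400 in ZT4 DT mice. The median change of these 8 was 0.011, with 1 called higher and 1 lower, so the sum does not stand for the whole list. The airway secretory gene Scgb1a1, on that list, had 32040 to 39580 at ZT16, against 21010 to 27740 at ZT4. The part of these markers in the DT result was not tested.

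Among the other collagens, Col12a1, Col8a1 and Col23a1 rose. Col12a1 encodes a collagen that decorates the surface of fibrils (a FACIT, a fibril-associated collagen with interrupted triple helices). It had 73.3, 78.7 and 86.4 in ZT16 control mice, against 47.6, 53.4 and 65.7 in ZT4 control mice, and was the single collagen whose control groups did not overlap. In anti-Ly6G mice it had 50.4, 75.2 and 85.7 at ZT16, against 32.9, 54.9 and 67.8 at ZT4. It rose by 0.47 ± 0.13 in anti-Ly6G (adjusted p = 0.0075) and 0.51 ± 0.13 in control mice (adjusted p = 0.0080). The anti-Ly6G batches differed, with a difference of 0.056 in July and 0.78 in September mice, while control mice had 0.34 in July and 0.64 in September. The ZT16 anti-Ly6G mice of July had 50.4 in Jul#1, 52.9 in Jul#2 and 75.2 in Jul#3. In DT mice Col12a1 had 37.2, 51.5 and 58.1 at ZT16, against 61.2, 68.4, 52.1 and 50.7 at ZT4, with a change of -0.26 ± 0.18 (adjusted p = 0.35).

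Col8a1, a short-chain collagen that forms hexagonal lattices in vessel walls, rose by 0.36 ± 0.10 in anti-Ly6G (adjusted p = 0.014) and 0.51 ± 0.10 in control mice (adjusted p = 0.0017). Its values were 12.0, 15.8 and 18.2 at ZT16, against 10.3, 12.2 and 12.95 at ZT4 in anti-Ly6G mice. They were 10.8, 15.0 and 17.1 at ZT16, against 7.70, 10.2 and 14.3 at ZT4 in control mice. DT mice had 10.98, 11.03 and 13.7 at ZT16, against 14.1, 17.3, 13.5 and 15.2 at ZT4, a change of -0.32 ± 0.15 that did not pass (adjusted p = 0.14). Its partner chain Col8a2 passed in no treatment, although all 3 ZT16 DT mice (22.4, 29.5 and 22.3) lay above the 4 ZT4 DT mice (17.6, 21.9, 20.2 and 20.9).

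The membrane-spanning collagens, whose helices project from the cell surface, changed in both directions. Col23a1 rose in all 3 treatments, by 0.27 ± 0.054 in anti-Ly6G (adjusted p = 0.00049), 0.29 ± 0.077 in DT (adjusted p = 0.010) and 0.20 ± 0.054 in control mice (adjusted p = 0.014). It had 108, 118 and 137 at ZT16, against 92.8, 96.4 and 107 at ZT4 in anti-Ly6G mice, and 133, 108 and 116 at ZT16, against 90.8, 95.6, 104 and 96.0 at ZT4 in DT mice, with no overlap in either treatment. Control mice overlapped slightly, with 105, 115 and 125 at ZT16, against 84.8, 99.8 and 108 at ZT4. The DT call was lost without ZT16 Apr#1 (0.21, adjusted p = 0.11). Col13a1 fell in all 3, by 0.37 ± 0.11 in anti-Ly6G (adjusted p = 0.021), 0.62 ± 0.16 in DT (adjusted p = 0.010) and 0.50 ± 0.11 in control mice (adjusted p = 0.0046), on the log2 scale.

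Col13a1 values were 38.3, 50.5 and 59.2 at ZT16, against 47.1, 68.4 and 74.9 at ZT4 in anti-Ly6G mice, and 43.2, 49.7 and 57.4 at ZT16, against 51.6, 70.5 and 80.8 at ZT4 in control mice. DT mice had 30.2, 48.9 and 52.8 at ZT16, all below 56.1, 64.9, 70.4 and 73.2 at ZT4. The anti-Ly6G call was lost without ZT4 Jul#2 (-0.33) or ZT16 Jul#1 (-0.30), and the DT call without ZT16 Apr#1 (-0.37, adjusted p = 0.15). Within anti-Ly6G mice the difference was -0.69 in July and -0.12 in September. Col17a1, the collagen of epithelial hemidesmosomes, fell in anti-Ly6G mice (-0.41 ± 0.13, adjusted p = 0.028), with 3.82, 5.64 and 6.60 at ZT16, against 6.50, 7.44 and 8.88 at ZT4. That call was lost without ZT4 Jul#1 (-0.39), ZT4 Jul#2 (-0.37) or ZT16 Jul#3 (-0.31), and under quantile normalization (-0.32). In DT mice Col17a1 had 5.28, 4.898 and 6.096 at ZT16, against 5.62, 7.198, 8.61 and 6.07 at ZT4, a change of -0.30 ± 0.19 (adjusted p = 0.29). Control mice had 4.54, 5.11 and 6.06 at ZT16, against 4.51, 6.67 and 9.85 at ZT4, a change of -0.33 ± 0.13 (adjusted p = 0.11). Both treatments overlapped between the times.

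Type VI collagen forms beaded microfilaments beside fibrils, and its main chains did not pass in any treatment. Col6a1 had medians of 318 at ZT16 and 308 at ZT4 in anti-Ly6G mice, 303 and 302 in DT mice, and 335 and 322 in control mice. Col6a2 had 236 and 227, 223 and 225, and 243 and 247 in the same order, and Col6a3 had 147 and 179, 157 and 144, and 154 and 178. The intervals of the log2 changes were narrow for Col6a1 (-0.085 to 0.14 in anti-Ly6G, -0.22 to 0.10 in DT and -0.074 to 0.15 in control mice). They were wider for Col6a3 (-0.37 to 0.041, -0.17 to 0.42 and -0.41 to -0.00076). Col6a6, whose values were near 1, fell in control mice (-0.79 ± 0.20, adjusted p = 0.011), with 0.119, 0.539 and 0.656 at ZT16, against 0.620, 1.12 and 3.08 at ZT4. The ZT4 library Sep#3 held the value of 3.08, and the call held without it, at -0.60. In anti-Ly6G mice Col6a6 had 0.266, 0.622 and 0.772 at ZT16, against 0.541, 0.735 and 1.095 at ZT4 (adjusted p = 0.39), and in DT mice 0.552, 0.353 and 1.21 at ZT16, against 0.719, 1.15, 0.903 and 0.502 at ZT4 (adjusted p = 0.74).

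The remaining tested collagens passed in no treatment: Col6a4, Col6a5, Col7a1, Col9a3, Col14a1, Col16a1, Col20a1, Col22a1, Col26a1 and Col28a1. Among them Col14a1, a further FACIT, had changes of -0.19 (interval -0.36 to -0.018) in anti-Ly6G, -0.21 (interval -0.46 to 0.033) in DT and -0.096 (interval -0.27 to 0.077) in control mice. Col16a1 had intervals of -0.19 to 0.061, -0.20 to 0.17 and -0.16 to 0.094. Col7a1, the anchoring fibril collagen of stratified epithelium, had changes of 0.027, 0.19 and 0.14. Of the members that were not tested, Col19a1, Col25a1 and Col9a2 were below 1 in every library, as were Col2a1 and Col11a1, and Col10a1, a marker of growth plate cartilage, reached 1.69 in 1 library.

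Enzymes that build collagen were described next, from a list of 30 genes. In anti-Ly6G mice 6 rose and 4 fell at ZT16, in DT mice 2 rose and 5 fell, and in control mice 3 rose and 1 fell, with median changes of 0.054, -0.068 and -0.029. Called higher were 20% of the list in anti-Ly6G (10.6% of all genes), 6.67% in DT (5.3% of all genes) and 10.0% in control mice (4.65% of all genes). Called lower were 13.3% in anti-Ly6G (10.4% of all genes), 16.7% in DT (9.98% of all genes) and 3.33% in control mice (4.38% of all genes), and the counts of the lists that follow stand beside the same shares. Loxl1, a lysyl oxidase that cross-links the matrix and elastin in particular, fell in all 3 treatments, by 0.92 ± 0.068 in anti-Ly6G, 0.56 ± 0.097 in DT and 0.83 ± 0.068 in control mice (adjusted p = 4.0e-12, 0.00021 and 8.7e-11). The lysyl hydroxylases Plod1 (0.61 and 0.46) and Plod3 (0.29 and 0.22) and the prolyl hydroxylase P4ha2 (0.55 and 0.36) rose in anti-Ly6G and control mice. In DT mice Lox fell (-0.96, adjusted p = 0.0080), a gene not called in the other treatments. Colgalt2, a collagen galactosyltransferase (-0.76, adjusted p = 0.0020), and Loxl2 (-0.35, adjusted p = 0.010) fell there too, and both also fell in anti-Ly6G mice (-0.32 and -0.22).

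Of 16 genes for collagen breakdown and uptake, 1 rose and 5 fell in anti-Ly6G, 1 rose and 5 fell in DT, and 1 rose and 3 fell in control mice (medians -0.18, -0.10 and -0.089). Mrc2, the receptor that takes up collagen fragments, fell in each treatment (-0.50, -0.34 and -0.42). Timp3, a matrix-bound protease inhibitor, rose in anti-Ly6G (0.71) and control mice (0.66). The membrane collagenase Mmp14 fell in anti-Ly6G (-0.42) and DT mice (-0.47), and the stromal protease gene Mmp11 fell in anti-Ly6G (-0.58), DT (-0.44) and control mice (-0.36). Mmp9, a gelatinase abundant in neutrophils and also on the neutrophil list, fell in control mice (-1.24, adjusted p = 0.0049), where ZT4 Sep#2 had the neutrophil sum given above, whose part was not tested. Ctsk, a lysosomal collagen-cleaving protease, rose in DT mice (0.67), where Timp2 fell (-0.20).

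Of 9 collagen receptors 1 fell in anti-Ly6G mice (11.1%, near the 10.4% of all genes called lower) and 1 in control mice (11.1%, against 4.38% of all genes). Both were Ddr1 (-0.19 and -0.16), a receptor tyrosine kinase that binds collagen. In DT mice 3 fell, the integrin chains Itga1 (-1.19, adjusted p = 2.0e-06) and Itga2 (-1.07, adjusted p = 0.0012) and the kinase Ddr2 (-0.37). The 16 partners of type IV collagen in basement membranes split by treatment. In anti-Ly6G mice 5 rose and 1 fell, in DT mice 0 rose and 10 fell, and in control mice 2 rose and 0 fell, with medians of -0.0083, -0.36 and 0.033 in that order. Nid2, a nidogen that links laminin to type IV collagen, rose in anti-Ly6G (0.97, adjusted p = 2.6e-08) and control mice (0.63, adjusted p = 9.8e-05), as did the laminin chain Lamb2 (0.19 in each), and Lamc3 (0.57) and Nid1 (0.31) rose in anti-Ly6G mice. Lamb2 (-0.20) and Nid1 (-0.36) fell in DT mice. In DT mice Pxdn, the peroxidase that cross-links type IV collagen, fell (-0.54, adjusted p = 3.8e-05), together with the laminin chains Lama2 (-0.54) and Lamb1 (-0.46) and the perlecan gene Hspg2 (-0.52), which also fell in anti-Ly6G mice (-0.29). The difference between DT and control time changes passed for 10 of the 16, all with a lower change in DT mice, among them Nid2 at -0.96 (adjusted p = 0.0012).

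Partners of fibrils passed in anti-Ly6G mice for 2 of 10, both higher, namely the fibronectin gene Fn1 (0.35) and the small proteoglycan gene Bgn (0.17). Counts of 0 of 10 came from limma in DT and control mice, where Bgn (-0.22, adjusted p = 0.051) and Postn (0.16, adjusted p = 0.30) had the smallest p, with 5 and 0 genes at an unadjusted p under 0.05. Of 18 genes of TGF-beta signalling, which drives collagen transcription in fibroblasts, 4 rose and 3 fell in anti-Ly6G, 0 rose and 7 fell in DT, and 1 rose and 1 fell in control mice. The ligand gene Tgfb2 fell in anti-Ly6G (-0.61) and control mice (-0.27), and Ltbp2, which encodes a binding protein of the latent ligand family, rose in both (0.32 and 0.26) and fell in DT mice (-0.27). Tgfb3 fell (-0.29) and Ltbp4 rose (0.37) in anti-Ly6G mice. In DT mice Tgfbr2 (-0.33), Skil (-0.33) and Tgfb3 (-0.30) fell.

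Anti-Ly6G against control mice at the same time gave no collagen past the threshold. By limma 0 of 37 collagens passed at ZT16 and 0 at ZT4, as did 0 of all tested genes (0%). At an unadjusted p under 0.05 there were 6 of 37 collagens and 701 of 16786 genes at ZT16, all 6 with negative differences. At ZT4 there were 2 of 37 collagens and 1185 of 16786 genes, with Col11a2 negative and Col8a1 positive. Of the 6 at ZT16, Col4a3, Col4a4 and Col4a5 differed by -0.66, -0.47 and -0.51 in July mice. In September mice they differed by -0.048, -0.089 and -0.077. The others were Col1a1 (-0.16 in July and -0.15 in September), Col3a1 (-0.30 and -0.19) and Col5a2 (-0.17 and -0.13). The limma fit without the trend option also gave 0 collagens past the threshold. No collagen had groups without overlap in either comparison, against 0.0357% of all genes at ZT16 and 0.107% at ZT4. The median log2 difference over the collagens was -0.068 at ZT16 and -0.016 at ZT4, beside 0.0011 and 0.0046 over all genes.

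The collagens of smallest p at ZT16 were Col3a1, Col4a5 and Col5a2, all with lower means in anti-Ly6G mice. Col3a1 had a lowest, median and highest value of 397, 430.1 and 506 in ZT16 anti-Ly6G mice, against 402, 510.1 and 664 in ZT16 control mice. Its difference was -0.24 (interval -0.40 to -0.078, adjusted p = 0.97). Col4a5 differed by -0.26 (interval -0.48 to -0.049) and Col5a2 by -0.15 (interval -0.27 to -0.027), each with an adjusted p of 0.97. The Col4a5 difference lay mostly in the July mice, as given above. At ZT4 the smallest p belonged to Col11a2, a minor fibrillar chain, with 1.30, 2.74 and 3.94 in ZT4 anti-Ly6G mice, against 2.96, 4.16 and 6.26 in ZT4 control mice. The groups overlapped, and the difference was -0.54 (interval -0.91 to -0.18, adjusted p = 0.63). Col8a1 differed by 0.22 (interval 0.0096 to 0.44, adjusted p = 0.69) and Col6a6 by -0.35 (interval -0.77 to 0.061, adjusted p = 0.74). Col1a1 had an interval of -0.29 to -0.012 at ZT16 and of -0.23 to 0.047 at ZT4.

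**Figure D4:**
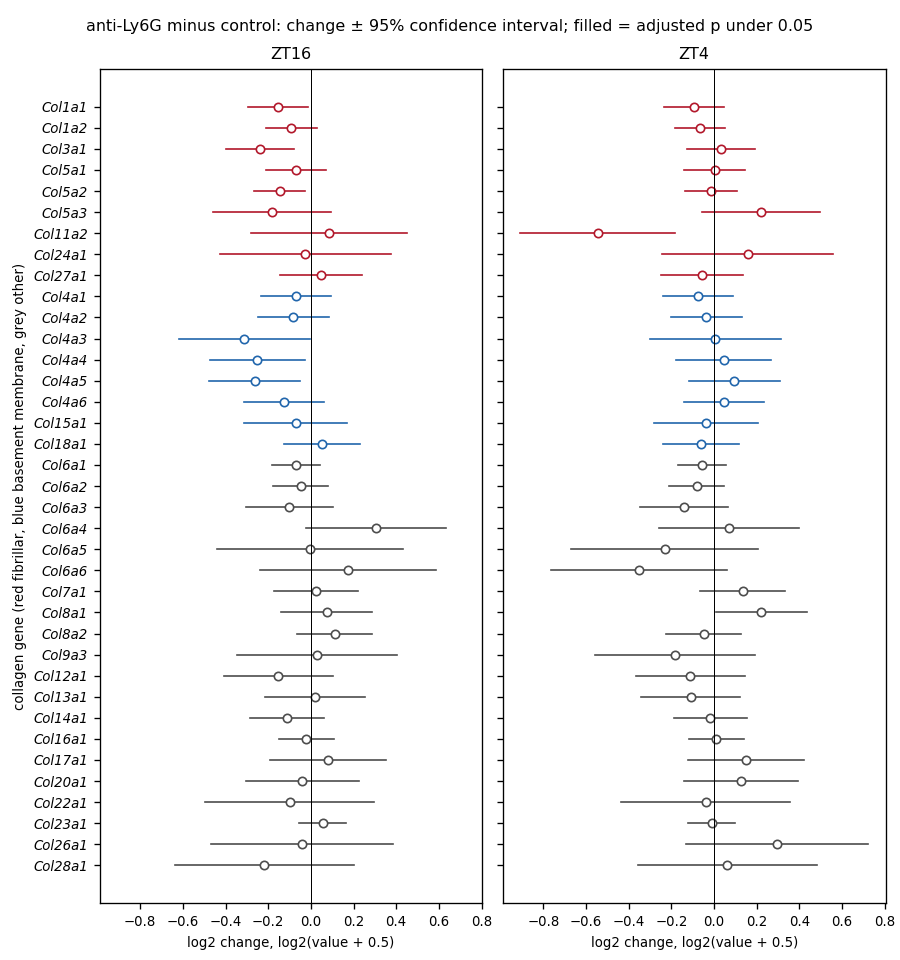
Log2 difference of anti-Ly6G minus control mice with its 95% confidence interval (x axis, log2(value + 0.5)) for the 37 tested collagens (y axis) at ZT16 and ZT4. No point is filled, since no adjusted p was under 0.05, and the intervals of Col3a1 at ZT16 and Col11a2 at ZT4 lie below 0.

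Whether the time change differed between anti-Ly6G and control mice was tested as an interaction. It passed for 0 of 37 collagens and 0% of all genes in limma, with 4 of 37 collagens and 1007 of 16786 genes at an unadjusted p under 0.05. The smallest p values belonged to Col11a2 (0.63, interval 0.12 to 1.15), Col3a1 (-0.27, interval -0.49 to -0.045) and Col4a5 (-0.36, interval -0.66 to -0.055), each with an adjusted p of 0.81. Col5a2, Col4a4, Col4a5, Col4a6 and Col17a1 passed over time in anti-Ly6G but not in control mice, and Col6a6 in control but not in anti-Ly6G mice, and for none of them was that difference past the threshold. None of the lists of enzymes, proteases, receptors, partners and TGF-beta genes held a gene that passed in limma between anti-Ly6G and control mice. At an unadjusted p under 0.05 there were 2 biosynthesis, 0 breakdown, 0 receptor, 2 basement membrane partner, 1 fibril partner and 2 TGF-beta genes at ZT16, and 3, 2, 0, 1, 1 and 0 at ZT4. The gene of smallest p at ZT16 was Adamts14 for biosynthesis (0.36), Mmp9 for breakdown (-0.56), Lair1 for receptors (0.26), Sparc for fibril partners (-0.19) and Tgfb2 for TGF-beta signalling (-0.18). At ZT4 it was P4ha2 (-0.29), Mmp9 (-1.1), Itga11 (-0.27), Fn1 (-0.25) and Tgfb2 (0.15) in the same order, and Lama2 (-0.13) for basement membrane partners.

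Chains that share a molecule or a fibril were compared across the 35 libraries after each library's log2 value had been centred on the mean of its group and batch, so that time and treatment do not enter. The 6 pairs were tested by permutation within group and batch (100000 resamples, two-sided, smallest possible p 1e-05) with Benjamini-Hochberg adjustment over the 6. Col4a1 and Col4a2 had a Pearson r of 0.956 and a Spearman rho of 0.955 (adjusted permutation p = 2e-05 for each). Leaving out the 2 libraries farthest from the median of Col4a1 left r at 0.95, and within batches r was 0.944 in July, 0.973 in September and 0.97 in April. Col4a3 and Col4a4 had r = 0.93 and rho = 0.83 (adjusted permutation p = 2e-05 for each), with 0.848 after the same step and 0.984, 0.93 and 0.503 in July, September and April. Col6a1 and Col6a2 had r = 0.854 and rho = 0.88 (adjusted permutation p = 2e-05 for each), with 0.841 after it. Within batches that r was 0.866 in July, 0.857 in September and 0.842 in April.

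The fibrillar pairs had lower r over all 35 libraries, and the pairs were not tested against each other. Within July and within September, Col1a1 and Col1a2 were about as close as Col6a1 and Col6a2. Col1a1 and Col1a2 had r = 0.789 and rho = 0.664 (adjusted permutation p = 0.0016 and 0.0014), with 0.615 without the 2 farthest libraries and 0.847, 0.912 and 0.249 in July, September and April. Col1a1 and Col3a1, which form mixed fibrils, had r = 0.603 and rho = 0.434 (adjusted permutation p = 0.03 and 0.041), and r was 0.336 without the 2 farthest libraries and 0.192 in April, so the relation rests in part on those 2. Col5a1 and Col5a2, the chains of the common type V molecule, had r = 0.406 and rho = 0.398 (adjusted permutation p = 0.039 and 0.041), with 0.332 without the 2 farthest libraries. Similar values were not particular to partner chains. With Col1a1, r was 0.646 for Col6a2 and 0.593 for Col6a1, and with Col4a1 it was 0.73 for Col5a2. Other collagens had lower values, down to -0.398 with Col1a1 and -0.456 with Col4a1, both for Col8a2. These further values were not tested. Both values of a pair come from the same library, with its tissue piece and scaling in common.

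**Figure D5:**
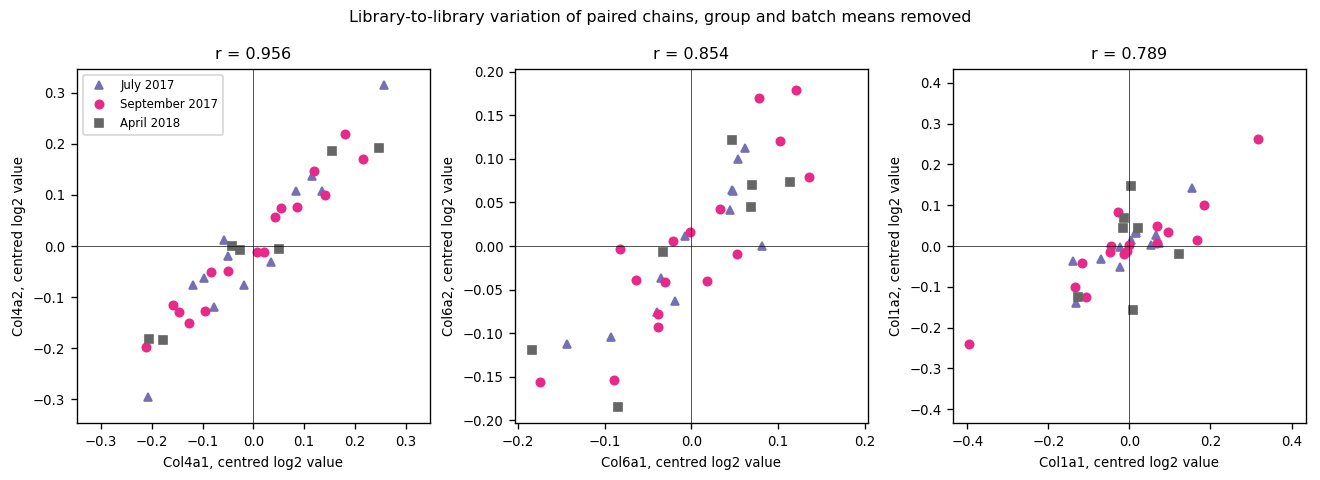
Log2 values centred on the mean of group and batch for 3 pairs of collagen chains (each axis 1 chain, 35 libraries, marker shape for batch), with Pearson r above each panel. The Col4a1 and Col4a2 points lie close to a line (r = 0.956), and the Col1a1 and Col1a2 points scatter more (r = 0.789), with the extremes in September libraries.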

How the data were processed

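Polyadenylated RNA from left lung lobes went through a single-cell amplification kit before sequencing, per the labels' protocols. The authors deposited 1 table of normalised expression values per gene, a signal that is never negative. How it was normalised or adjusted for batch, its length scaling and the read depth are not stated, so no counting interval is given and levels are not compared between genes. The submitters' processing notes name kallisto 0.43.1, RSEM 1.2.20, cutadapt, CASAVA 1.8.2 and the build GRCm38, with no role or order. Dividing each gene's September minus July difference by its standard error gave an SD of 0.516 across genes, and values already aligned between batches can make standard errors too small.

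A gene was tested where 3 or more libraries had a value of 1 or higher, which held for 16786 genes and not for 5425. limma 3.58.1 in R 4.3.3, with the trend option, was fitted to log2(value + 0.5) of all 35 libraries with 6 group means and a September term (28 residual degrees of freedom). All adjusted p-values are two-sided, by Benjamini-Hochberg over these 16786 genes, and the threshold was 0.05. Changes on this scale understate those of low genes. This limma fit was tested on simulated data with known changes. DT levels were not tested against other groups, since the batches differ, but the time changes of DT and control mice were.

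Members and gene lists were chosen with earlier results of these data known. Values in every group are given for collagens called over time in control or anti-Ly6G mice and for 12 fixed members, and otherwise for the 3 of smallest p. Of other lists, up to 4 called genes of smallest p are named per comparison. Some genes that this rule names are not reported here. Further genes and values, among them Col8a2, Col14a1, Col16a1 and Col7a1, were named after their values were seen. Alternatives were 2 other pseudocounts, other filters, scalings and fits, single batches, and each library left out. Gene positions are from GENCODE M21 and promoter windows from RefSeq.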

Additional observations from a re-analysis of the deposited data

Results flagged for a closer look

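Of 120 groups of 4 to 7 libraries examined for named collagens, 6 (5%) held a library whose gap to its nearest neighbour, divided by the group's range, was above Dixon's 95% critical value, which chance alone passes in about 1 in 20 groups. Col5a3 was 3.31 in ZT16 anti-Ly6G Sep#1, against 4.03 to 4.53 in the other 6, and 13.8 in ZT4 control Sep#3, against 6.00 to 8.94. The same ZT4 control library had a Col6a6 value of 3.08, against 0.620 to 1.44. Col15a1 was 14.5 in ZT16 control Jul#2, against 10.1 to 11.7. In ZT4 DT mice Col1a2 was 424 in Apr#1, against 487 to 496, and Col5a2 was 97.4 in Apr#3, against 115 to 117.

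The time change differed between DT and control mice by a direct test for 4 of 37 collagens, a share of 10.8% that is below the 13.8% of all genes, with log2 differences of -0.81 for Col4a1, -0.71 for Col4a2, -0.77 for Col12a1 and -0.83 for Col8a1. Genotype, toxin and batch cannot be told apart in these 4 values.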

How the results depend on the processing

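No paired analysis was possible because the table's columns carry numbers that match no replicate number of the labels. All 38 called collagen values kept their call with pseudocounts of 0.1 or 1, no filter, TMM scaling, no trend or no batch term, and 36 of 38 did under quantile normalization, where Col1a2 in anti-Ly6G mice gained a call (-0.17, adjusted p = 0.025 in limma). None of the 38 changed sign, and 10 were lost in at least 1 of 35 fits that left out a library. With July mice alone 9 collagens passed in anti-Ly6G (0 higher) and 2 in control mice (0 higher, 2 lower); with September mice alone 9 (6 lower) and 5 (1 higher, 4 lower). Leaving out single libraries gave 5 to 8 calls in DT mice, with 1 to 2 higher. Class medians moved for fibrillar genes with a filter of 5 in 7 libraries, to -0.44 in anti-Ly6G and -0.36 in control mice, and to -0.43 in July anti-Ly6G mice. The basement membrane median moved to -0.078 in September anti-Ly6G mice, and to -0.51 for the DT minus control time difference with type IV chains alone. Values that were not called changed sign as follows, and the cause was not tested. Under quantile normalization they were -0.071 (Col4a1), -0.012 (Col4a2) and -0.025 (Col6a1) in anti-Ly6G, 0.0100 (Col1a2), 0.033 (Col6a1) and 0.075 (Col6a2) in DT, and -0.017 (Col4a1) and -0.030 (Col6a2) in control mice. July mice alone gave -0.10 (Col4a1), -0.082 (Col4a2), -0.13 (Col6a1) and -0.16 (Col6a2) in anti-Ly6G, and -0.014 (Col6a1) and -0.087 (Col6a2) in control mice. September mice alone gave 0.039 (Col6a3) and 0.12 (Col18a1) in anti-Ly6G and -0.056 (Col4a1) in control mice. With single libraries left out the ranges were -0.074 to 0.034 for Col18a1 in anti-Ly6G, -0.13 to 0.0013 for Col1a2, -0.11 to 0.035 for Col6a1 and -0.089 to 0.032 for Col6a2 in DT, and -0.0031 to 0.063 for Col4a1 and -0.027 to 0.031 for Col6a2 in control mice. Batch alternatives gave no value for DT mice, which came from 1 batch. Read depth is unknown, so what it limits cannot be given.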
